A study of Mus musculus with 31 samples.

Results

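Unstimulated ("naive") mouse dendritic cells labelled as lacking the receptor gene Gpr34 were compared with wild-type cells at the level of messenger RNA. The comparison rests on 6 of the 31 RNA-seq libraries of the series, chosen by their titles alone: replicates 2, 3 and 4 of the naive cells labelled knockout, and replicates 1, 2 and 4 of the naive wild-type cells. The first group carries the genotype Gpr34-/- and the second none, and both are of the strain C57BL/6. Per the labels' protocols, marrow from the leg bones of male mice aged 8 to 16 weeks was grown for 10 days in medium with GM-CSF from an X63 cell line, a culture that yields dendritic cells beside macrophage-like cells. The naive cells received no LPS. The labels do not describe the Gpr34 allele or name the animal behind a library. The p-values therefore measure only the spread between libraries, which may in part be technical. That spread was estimated over all 12 dendritic cell libraries, the LPS-treated ones included. In bulk RNA, fewer cells of a type and less RNA per cell cannot be told apart. For side by side values, 3 LPS-treated libraries labelled knockout and 3 LPS-treated wild-type libraries were used (LPS given on day 11 for 8 h), with 9 Gpr34-/- and 10 wild-type spleens of mice aged 12 weeks.

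Gpr34 is a G protein-coupled receptor on the X chromosome that responds to lysophosphatidylserine, a lipid made from phosphatidylserine by phospholipases. It belongs to the P2Y12-like receptors, signals through inhibitory G proteins, and is known for its expression in microglia, macrophages, dendritic cells and mast cells. Dendritic cells take up antigen while immature. On maturation, as after contact with LPS, they lose uptake receptors, stop dividing, and gain costimulatory molecules such as Cd40 and chemokines such as Ccl22.

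The targeted gene did not follow the label in every library. Gpr34 (ENSMUSG00000040229, chromosome X, 13632089 to 13640858, plus strand, GRCm38) was covered by 0, 120 and 4 counts in the libraries labelled knockout (replicates 2, 3 and 4), and by 324, 199 and 226 counts in the wild-type ones (replicates 1, 2 and 4). As CPM, counts divided by TMM-scaled library size, this was 0, 1.48 and 0.0823 CPM in the cells labelled knockout and 4.82, 3.26 and 3.17 CPM in wild-type cells. The groups did not overlap, but replicate 3 labelled knockout stood far nearer to the wild-type libraries than the other two did. The log2 fold change, labelled knockout over wild-type, was -2.79 (SE 1.38) and did not pass edgeR's quasi-likelihood test with Benjamini-Hochberg adjustment over all genes at 0.05 (adjusted p = 0.765). Without replicate 3 it was -6.52 (SE 1.67, adjusted p = 0.621 in edgeR), a value that depends on the prior count because replicates 2 and 4 held only 4 counts together. DESeq2, another count test, gave an adjusted p of 0.528 with replicate 3 and 0.00302 without it. Over the 15 alternatives, DESeq2 on all libraries among them, the adjusted p ranged from 0.291 to 1. Because of replicate 3, the 3 libraries are called labelled knockout throughout.

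Other libraries of the same genotype also held Gpr34 reads. LPS-treated replicates 2, 3 and 4 labelled knockout had 0, 2.34 and 2.22 CPM, against 3.44, 1.46 and 1.97 CPM in LPS-treated wild-type replicates 1, 2 and 3. In Gpr34-/- spleens Gpr34 ranged from 0.398 to 1.66 CPM (median 1.14 CPM, n = 9), against 4.13 to 9.02 CPM in wild-type spleens (median 5.61 CPM, n = 10), and this difference passed edgeR's test (log2 fold change -2.51, SE 0.25), as 0.0785% of genes did downward in spleen. Counts per gene do not say whether such reads come from a deleted or a retained stretch of the gene. Gpr34 lies inside Cask, which is transcribed from the other strand (13517080 to 13851367, minus strand), and no source used here states whether counting used strand. Cask was at 96.1, 171 and 95.6 CPM in the naive cells labelled knockout and 118, 96.9 and 88.7 CPM in naive wild-type cells, and its part in the Gpr34 counts was not tested.

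**Figure D1:**
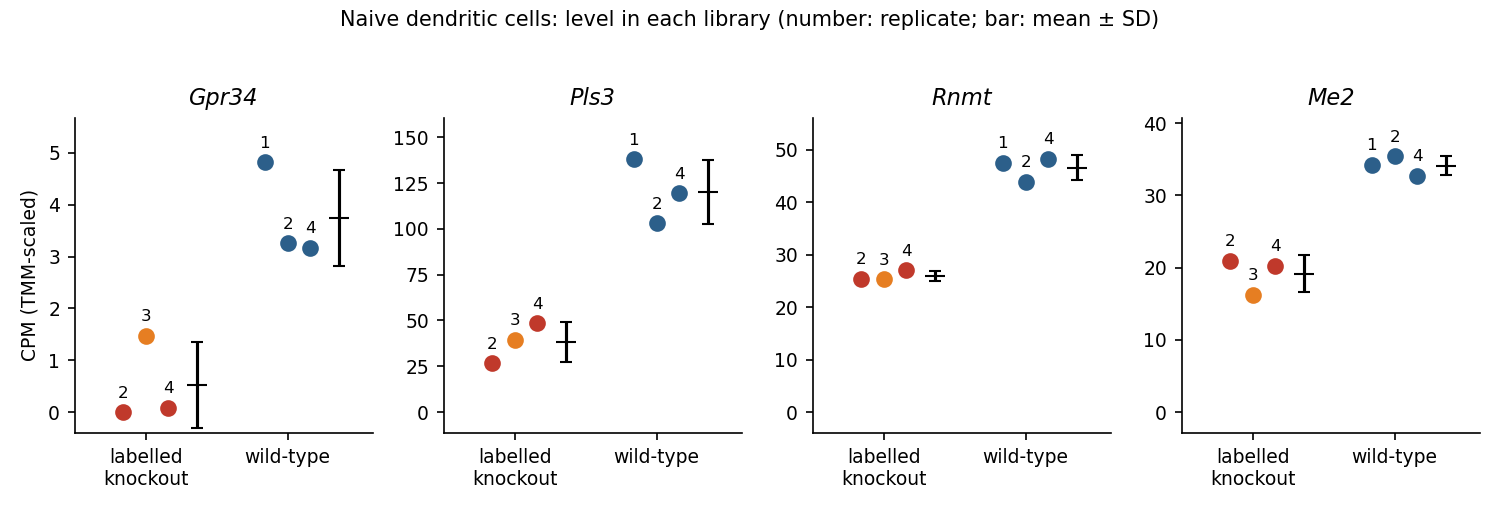
Level of Gpr34 and of the 3 ranked genes with the smallest p among the lower ones, in CPM scaled by TMM, in each naive library (left, labelled knockout; right, wild-type; the number is the replicate; the bar is the mean ± SD, n = 3). Replicate 3 labelled knockout, in orange, holds 1.48 CPM of Gpr34, while for Pls3, Rnmt and Me2 all 3 libraries labelled knockout lie well below all wild-type libraries.

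The files held whole-number counts per gene, 41801772 to 74164853 per library in the naive cells labelled knockout and 53585638 to 62282841 in naive wild-type cells, and replicate 3 labelled knockout was the deepest. No library was a copy of another. Dendritic cell markers were present in all 6 libraries, though Xcr1 and Cd209a were low, at most 0.369 and 1.62 CPM. Itgax, the CD11c integrin, stood at 586 to 792 CPM in the cells labelled knockout and 501 to 582 CPM in wild-type cells. The summed level of 15 such markers was 2984, 3722 and 2895 CPM in replicates 2, 3 and 4 labelled knockout. In wild-type cells it was 2767 to 3101 CPM. Its largest members were Irf8, Traf1 and Itgax, at most 1357, 1054 and 792 CPM. Macrophage markers were present too, led by Csf1r, the receptor of macrophage colony-stimulating factor, at 497 to 854 CPM in the cells labelled knockout and 681 to 842 CPM in wild-type cells. Of 17 T and NK cell markers 5 were tested, and their summed level was 1.83 to 4.07 CPM in the cells labelled knockout and 2.23 to 4.87 CPM in wild-type cells. Cd3e, which defines T cells, was too low to be tested, at most 0.0411 CPM in any library.

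Replicate 3 labelled knockout stood apart from the other 5 naive libraries in far more than Gpr34. Among 12682 genes with a mean of at least 1 CPM it was at least 2-fold above all the others for 141 genes and at least 2-fold below all the others for 406, where the other naive libraries gave 3 to 18 and 26 to 55. Its rank correlation with the LPS-treated libraries was 0.951 to 0.962, against 0.933 to 0.942 for the other naive libraries. In 685 genes that were at least 4-fold higher with LPS in wild-type cells, its median log2 level over naive wild-type was 0.72, against -0.13 to 0.06 in the other naive libraries and 2.58 to 2.93 in the LPS-treated libraries. In 970 genes at least 4-fold lower with LPS in wild-type cells its median was -1.05, and the LPS-treated libraries stood at -2.84 to -2.39. It thus lay between the naive and the LPS-treated libraries on both sets, nearer to the naive ones.

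**Figure D2:**
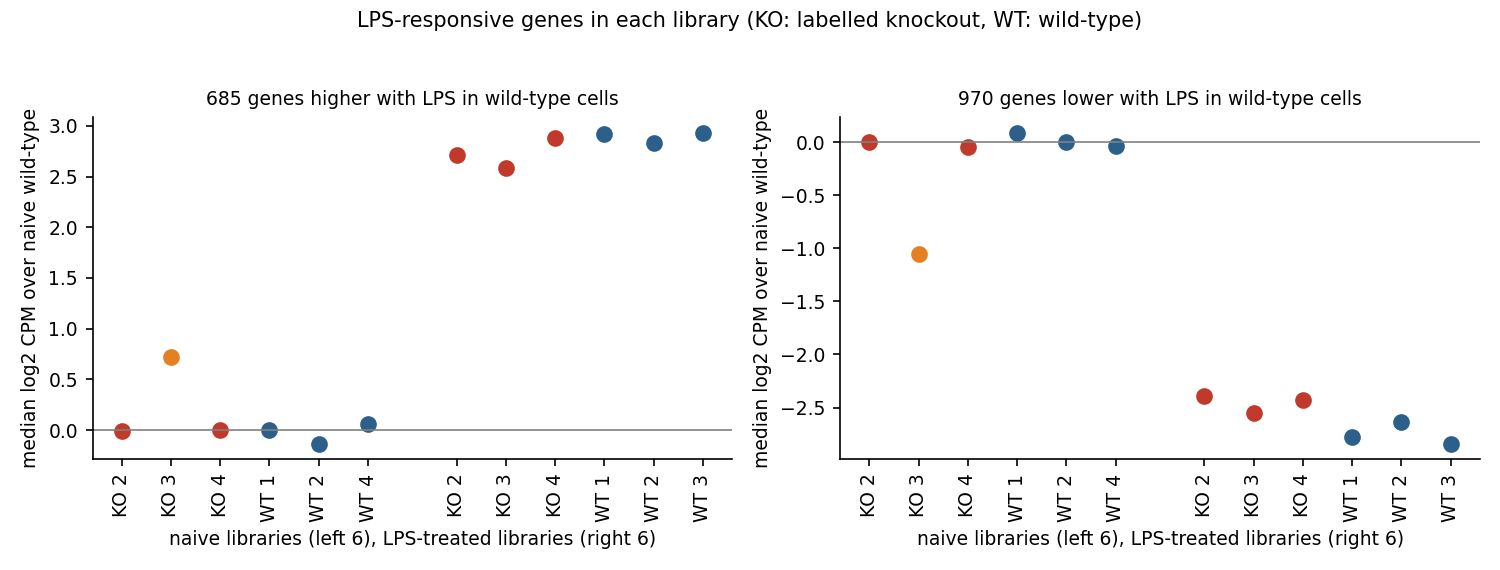
Median log2 CPM over naive wild-type of the 685 genes higher (left) and the 970 genes lower (right) with LPS in wild-type cells, for each naive library (left 6) and LPS-treated library (right 6), with libraries labelled knockout (KO) left of wild-type (WT). Naive replicate 3 labelled knockout, in orange, stands at 0.72 and -1.05, apart from the other naive libraries near 0.

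Several gene lists stood apart in this library. Replicate 3 labelled knockout exceeded the other 5 naive libraries in 22 of 24 maturation genes and 23 of 30 NF-kB targets and cytokine genes, where it exceeded them in 26.1% of all genes tested. Cd40, the receptor of the T cell ligand CD40L, was at 477 CPM in it and 83.3 to 114 CPM in the others, and Ccl22, a chemokine that draws T cells, at 7942 CPM against 1847 to 2315 CPM. The actin bundler gene Fscn1, a sign of mature dendritic cells, was at 3180.3 CPM against 1154 to 1609.7 CPM. The same library was below the other 5 in 25 of 26 cell cycle genes, 18 of 23 uptake receptors, 17 of 22 cholesterol genes and 12 of 13 macrophage markers, where it was below them in 25.4% of all genes tested. Mrc1, the mannose receptor, was at 8.33 CPM in it against 38.3 to 68.3 CPM in the others, and Ccnb2, a mitotic cyclin, at 1.76 CPM against 13.3 to 16.9 CPM. These example genes were chosen after their values were seen. The values below are those with this library, and most fold changes are also given without it.

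Across all genes, no gene passed between the cells labelled knockout and wild-type cells in edgeR's quasi-likelihood test, 0 of 16965 tested (0% called). At an unadjusted p under 0.05 there were 735 genes higher (4.33%) and 404 lower (2.38%) in the cells labelled knockout, 6.71% together. For 6.59% of the genes all 3 libraries labelled knockout lay above all 3 wild-type libraries, and for 6.48% below, 13.1% together. Without replicate 3, 0 of 17455 genes passed (0% called) and the split at an unadjusted p under 0.05 turned round, to 385 higher (2.21%) and 664 lower (3.8%), 6.01% together. DESeq2 called 46 genes higher (0.337%) and 30 lower (0.22%) with replicate 3, 0.557% together, and 18 higher (0.125%) and 66 lower (0.459%) without it, 0.584% together. The genes called by DESeq2 in both were 15 higher ones, 32.6% of the 46 and 83.3% of the 18, and 14 lower ones, 46.7% of the 30 and 21.2% of the 66. limma voom with library weights called 0 higher and 1 lower. Whether single genes passed thus depended on the test, and the balance of higher against lower calls changed when 1 library was left out.

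The lowest p of all belonged to Pls3 (plastin 3), which encodes a protein that bundles actin filaments (chromosome X, 75785654 to 75875182). It was at 26.6, 39.4 and 48.5 CPM in replicates 2, 3 and 4 of the cells labelled knockout, against 138, 103 and 119 CPM in wild-type replicates 1, 2 and 4. Every library labelled knockout was under every wild-type library by over 2-fold, replicate 3 included. The log2 fold change was -1.65 (SE 0.20, edgeR adjusted p = 0.0837), and -1.69 (SE 0.24, adjusted p = 0.435) without replicate 3. It passed in 4 of the 15 alternatives: limma voom (adjusted p = 0.0445), edgeR with no filter on low counts (adjusted p = 0.0331), edgeR without replicate 4 labelled knockout (adjusted p = 0.0451) and DESeq2 (adjusted p = 6.61e-12), over a range up to 1. Without replicate 3 it passed in DESeq2 as well (adjusted p = 4.34e-09).

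Rnmt, the enzyme that methylates the messenger RNA cap, and Me2, the mitochondrial malic enzyme, came next. Rnmt (chromosome 18, 68300355 to 68324852) was at 25.4, 25.3 and 27.0 CPM in the cells labelled knockout, against 47.5, 43.9 and 48.3 CPM in wild-type cells. Its log2 fold change was -0.85 (SE 0.12, edgeR adjusted p = 0.251), and -0.84 (SE 0.14, adjusted p = 0.490) without replicate 3. The SD was 0.9496 CPM in the cells labelled knockout and 2.36 CPM in wild-type cells (n = 3 each), far less than the gap between the groups. Me2 (chromosome 18, 73769903 to 73815449) was at 21.0, 16.2 and 20.2 CPM in the cells labelled knockout and 34.2, 35.4 and 32.7 CPM in wild-type cells. Its log2 fold change was -0.83 (SE 0.14, edgeR adjusted p = 0.486), and -0.74 (SE 0.14, adjusted p = 0.490) without replicate 3. Both passed in DESeq2 alone among the alternatives (adjusted p = 1.9e-07 and 2.46e-05, over ranges up to 1). Without replicate 3, Rnmt and Me2 passed in DESeq2 too (adjusted p = 3.14e-05 and 0.0002). Earlier results on these data had named all 3 of these genes.

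The other lower genes ranked by p, none of which passed in edgeR, were Ighg3, Ier2, Tcaf1, Asic3 and Fbrsl1. Ighg3, the constant part of an immunoglobulin heavy chain, was at 0.492, 0.148 and 0.206 CPM in the cells labelled knockout and 2.42, 3.44 and 1.82 CPM in wild-type cells (log2 fold change -3.18, SE 0.59, and -2.87, SE 0.65, without replicate 3). Asic3, an acid-sensing ion channel, was at 0.141, 0.541 and 0.165 CPM in the cells labelled knockout against 2.19, 3.75 and 2.84 CPM in wild-type cells (log2 fold change -3.31, SE 0.74, and -4.25, SE 0.86, without replicate 3). Both were low genes, whose ratios rest on few counts. Ier2, an immediate early gene, was at 4.41, 4.23 and 4.34 CPM in the cells labelled knockout and 8.43, 8.30 and 6.27 CPM in wild-type cells (log2 fold change -0.82 with and without replicate 3). Tcaf1, a partner of TRP ion channels, had a log2 fold change of -0.81 (SE 0.17), and -0.80 without replicate 3. Fbrsl1, related to fibrosin, had -0.48 (SE 0.11), and -0.42 without it. All 5 passed in DESeq2, but Fbrsl1 did not without replicate 3 (adjusted p = 0.0683).

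The 8 higher genes ranked by p had log2 fold changes of 0.50 to 1.10. E2f3, a transcription factor of the cell cycle, was at 11.6, 12.0 and 11.9 CPM in the cells labelled knockout, against 5.95, 6.71 and 7.83 CPM in wild-type cells (log2 fold change 0.79, SE 0.15). Fnip1, a partner of folliculin in nutrient sensing, was at 49.3, 70.8 and 69.1 CPM in the cells labelled knockout and 41.4, 29.5 and 29.0 CPM in wild-type cells (log2 fold change 0.92, SE 0.17). Kpna4, an importin that carries proteins into the nucleus, was at 199.99, 262 and 222 CPM in the cells labelled knockout and 162, 163 and 157 CPM in wild-type cells (log2 fold change 0.50, SE 0.09). For each of these the lowest library labelled knockout lay above the highest wild-type one, and the fold changes without replicate 3 were 0.77, 0.82 and 0.38. Ythdf3, a reader of methylated adenosine in RNA, was at 61.3, 60.4 and 63.1 CPM in the cells labelled knockout and 42.8, 37.1 and 44.7 CPM in wild-type cells (log2 fold change 0.57, SE 0.12, and 0.57 without replicate 3). Iqcb1, a protein of the cilium, Slf1, a DNA repair factor, Zfyve16, of endosomes, and Jmjd1c, of the histone demethylase family, had log2 fold changes of 1.07 (SE 0.22), 1.10 (SE 0.23), 0.81 (SE 0.16) and 0.55 (SE 0.12), and 0.85, 1.06, 0.70 and 0.42 without replicate 3. The edgeR adjusted p of the 8 was 0.518 to 0.582, and all 8 passed in DESeq2. Without replicate 3 Iqcb1 did not (adjusted p = 0.0586).

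These 16 genes were ranked on the naive comparison. The LPS-treated libraries were in the same fit and helped set the spread, and so the p, by which the genes were chosen, so their values are a description and no independent check. The spleens were fitted apart. In LPS-treated cells the log2 fold change, labelled knockout over wild-type, had the same sign as in naive cells for 16 of 16, and the groups did not overlap in that direction for 10. Over all genes tested the sign was the same for 60.4% and the groups were apart in that direction for 12.9%, and over the 1754 genes that the ranking could have taken the shares were 75.1% and 24.5%. Pls3 was at 34.5, 28.7 and 29.9 CPM in LPS-treated replicates 2, 3 and 4 labelled knockout and 84.8, 70.3 and 87.0 CPM in LPS-treated wild-type replicates 1, 2 and 3 (log2 fold change -1.38, SE 0.20). For Rnmt the value was -0.70 (SE 0.12) and for Me2 -0.80 (SE 0.14), and Fnip1 and Ythdf3 stood at 1.01 (SE 0.17) and 0.88 (SE 0.12). None of the 16 passed in LPS-treated cells in edgeR, where 11 had an unadjusted p under 0.05. In spleen 4 of the 16 had the same sign, where 40.9% of all genes tested there and 31.9% of the 1744 the ranking could have taken did, and none passed, with Pls3 at -0.28 (SE 0.09, adjusted p = 0.122), Rnmt at -0.44 (SE 0.17) and Me2 at 0.02 (SE 0.07). The test of the difference between the naive and the LPS effect passed for none of the 16 (values of -3.10 to 0.85, lowest edgeR adjusted p = 0.9999).

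**Figure D3:**
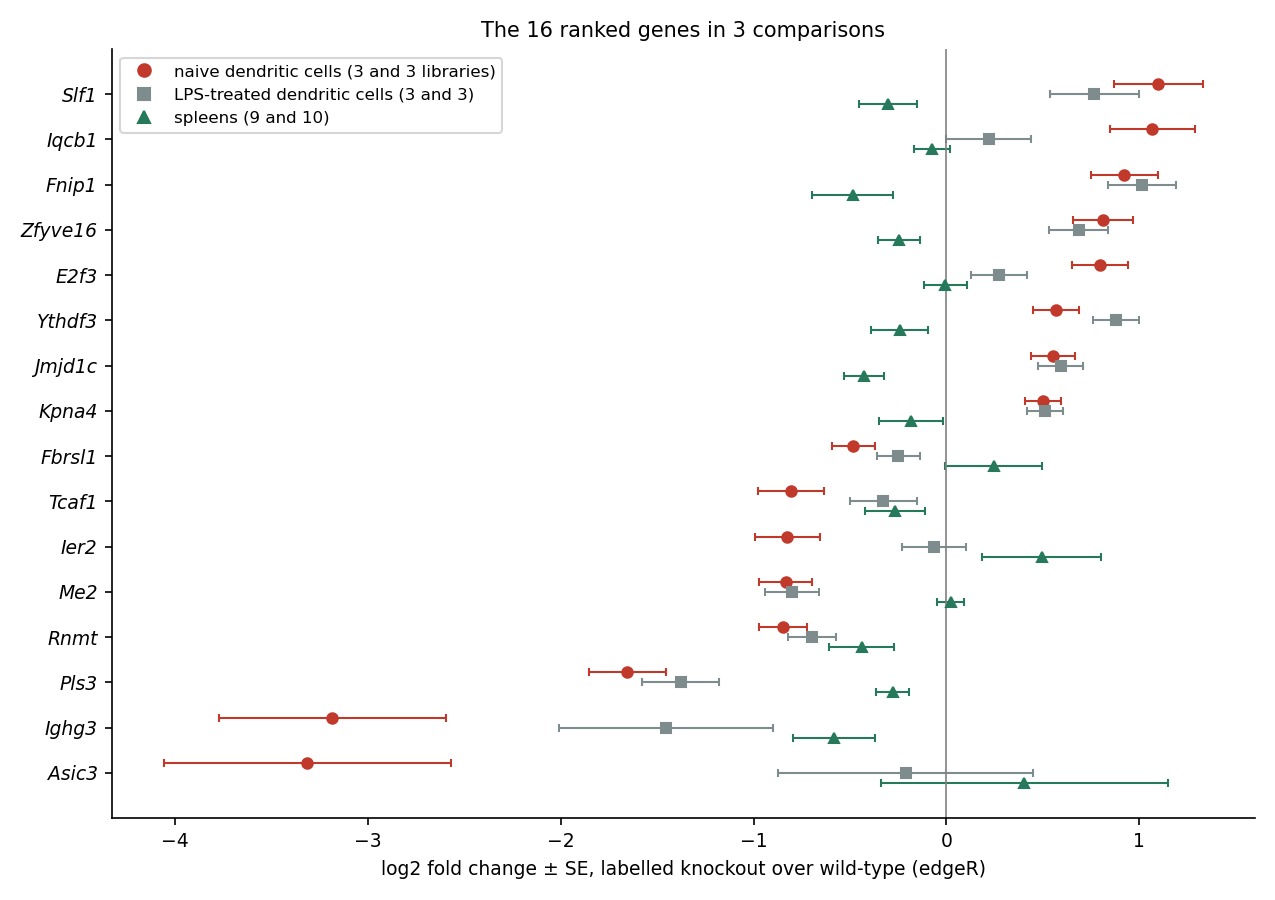
Log2 fold change ± SE, labelled knockout over wild-type, of the 16 ranked genes in naive cells (circles, 3 and 3 libraries), LPS-treated cells (squares, 3 and 3) and spleens (triangles, 9 and 10). All 16 squares fall on the same side of 0 as the circles, while the triangles do so for 4 genes.

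Leaving out replicate 3 brought further genes into the ranking. Plac8, a small protein of myeloid and lymphoid cells, was at 2.20 and 1.69 CPM in replicates 2 and 4 labelled knockout, against 6.93 CPM in replicate 3 and 4.74, 7.40 and 6.47 CPM in wild-type cells (log2 fold change -1.68, SE 0.25, edgeR adjusted p = 0.435 without replicate 3). Cacnb3, a calcium channel subunit, was at 767 and 773 CPM in replicates 2 and 4, against 1197.7 CPM in replicate 3 and 969, 1014.4 and 986 CPM in wild-type cells. For Apoc2, a cofactor of lipoprotein lipase, and Arl5c, a small GTPase, the fold change changed its sign with replicate 3: it was 0.25 (SE 0.40) and 0.36 (SE 0.35) with it, and -0.66 (SE 0.12) and -0.41 (SE 0.08) without it. Zgpat, a zinc finger protein, had -0.32 (SE 0.12) with it and -0.50 (SE 0.09) without it. On the higher side Fcrl1, Alg5, Stap1 and Zfp729a came in, with log2 fold changes without replicate 3 of 1.502 (SE 0.28), 0.49 (SE 0.10), 0.71 (SE 0.15) and 1.01 (SE 0.23). None of these 9 passed in edgeR with or without replicate 3. In DESeq2 all 9 passed without it, with adjusted p of 1.48e-06 for Plac8 to 0.0243 for Zfp729a, and Stap1 and Zfp729a passed with it.

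The genes around Gpr34 on the X chromosome were read as a group. Of 25 genes of the region 19 were tested, and 0 passed in edgeR (0% called). All 3 libraries labelled knockout lay above all wild-type libraries for 4 of the 19 and below for 2, Gpr34 itself and Fundc1, where over all genes this held for 6.59% and 6.48%, and the median log2 fold change was 0.19 with replicate 3 and 0.03 without it, against 0.00 over all genes. Atp6ap2, an accessory protein of the proton pump and the prorenin receptor (12587801 to 12617049), was at 100.9, 102 and 102.8 CPM in the cells labelled knockout and 82.8, 77.3 and 77.2 CPM in wild-type cells. Its log2 fold change of 0.37 (SE 0.08, edgeR adjusted p = 0.582) passed in DESeq2 alone (adjusted p = 0.00633, over a range up to 1), and it was 0.35 (SE 0.09) without replicate 3, 0.17 in LPS-treated cells and 0.01 in spleen. Usp9x, a deubiquitinase, and Ddx3x, an RNA helicase, followed with 0.52 (SE 0.17) and 0.33 (SE 0.13), and 0.38 and 0.31 without replicate 3. Gpr82, the orphan receptor gene beside Gpr34, was at 1.04, 1.13 and 0.802 CPM in the cells labelled knockout and 1.40, 0.818 and 0.646 CPM in wild-type cells, groups that overlapped, whereas in spleen its log2 fold change was 3.38 (SE 0.33) and passed, as 0.0982% of genes did upward there.

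The known partners of the receptor did not pass either. Of 13 genes for receptors, makers and breakers of lysophosphatidylserine 12 were tested, with a median log2 fold change of -0.04 with replicate 3 and 0.02 without it. P2ry10, another receptor of the lipid, was at 61.2, 67.3 and 66.2 CPM in the cells labelled knockout and 47.2, 52.96 and 55.6 CPM in wild-type cells (log2 fold change 0.32, SE 0.22, and 0.28, SE 0.25, without replicate 3). Pla1a, the phospholipase that makes the lipid, was at 10.9, 35.8 and 10.5 CPM in the cells labelled knockout and 10.5, 13.6 and 12.8 CPM in wild-type cells, a difference set by replicate 3. Among 21 genes of inhibitory G protein signalling the median was -0.06 with and without replicate 3, and 0 passed.

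Kinase signalling and immediate early genes, which lie downstream of many G protein-coupled receptors, gave values of both signs and no gene that passed in edgeR. Of 31 MAP kinase and PI3 kinase genes, 4 were higher and 4 lower at an unadjusted p under 0.05, shares of the genes tested to be read beside 4.33% and 2.38% over all genes. For 9 of the 31 replicates 2 and 4 labelled knockout both lay below all wild-type libraries, and for 3 above. Over all genes this held for 13% and 12.7%. Dusp6, the phosphatase that switches off ERK, was at 10.3, 9.24 and 21.6 CPM in the cells labelled knockout and 34.6, 25.9 and 23.4 CPM in wild-type cells (log2 fold change -1.03, SE 0.30, and -0.83, SE 0.30, without replicate 3). Mapk8, the kinase JNK1, had 0.63 (SE 0.23) with replicate 3 and 0.32 (SE 0.19) without it. Of 24 immediate early genes 2 were higher and 4 lower at that p, with a median of -0.17 with and without replicate 3. All 3 libraries labelled knockout lay below all wild-type libraries for 6 of the 24 and above for 3, where over all genes this held for 6.48% and 6.59%. Replicates 2 and 4 both lay below for 8 and above for 4, against 13% and 12.7% over all genes. Fos was at 1.64, 1.81 and 3.19 CPM in the cells labelled knockout, against 21.7, 5.401 and 5.12 CPM in wild-type cells (log2 fold change -2.29, SE 0.59, and -2.17, SE 0.70, without replicate 3), and wild-type replicate 1 set much of that gap. Nr4a2, a nuclear receptor, had a log2 fold change of 1.06 (SE 0.29) and Zfp36, which destabilises cytokine messages, -0.41 (SE 0.12), and 0.66 and -0.48 without replicate 3. Ier2 passed in DESeq2 with and without replicate 3 (adjusted p = 0.00470 and 0.0345), and Fos with it alone (adjusted p = 0.0197, against 0.0905 without it).

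Genes of survival and death did not pass in edgeR. Among 10 tested apoptosis inhibitors the median log2 fold change was 0.14 with replicate 3 and -0.00 without it. Bcl2l1, which encodes Bcl-xL, was at 84.0, 301 and 84.7 CPM in replicates 2, 3 and 4 of the cells labelled knockout and 81.6, 79.6 and 89.7 CPM in wild-type cells. Cflar, which encodes the caspase-8 inhibitor c-FLIP, was at 66.1, 202 and 95.3 CPM in the cells labelled knockout and 87.7, 65.4 and 61.8 CPM in wild-type cells. The higher means of both genes rested on replicate 3, and without it their log2 fold changes were -0.00 (SE 0.10) and 0.16 (SE 0.17). Among 29 apoptosis effectors and death receptors the median was 0.03 with replicate 3 and -0.02 without it, and 1 gene had an unadjusted p under 0.05. That gene was Tradd, an adaptor of the TNF receptor, at 19.9, 15.9 and 24.8 CPM in the cells labelled knockout against 26.0, 30.8 and 26.0 CPM in wild-type cells (log2 fold change -0.45, SE 0.16, and -0.32, SE 0.14, without replicate 3).

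The lists of maturation and inflammation depended on replicate 3. Among 24 maturation genes 19 had a positive log2 fold change with it (median 0.29) and 4 without it (median -0.14), and none passed in edgeR either way. For 9 of the 24 replicates 2 and 4 labelled knockout both lay below all wild-type libraries, and for 0 above, where over all genes tested this held for 13% and 12.7%. Relb, an NF-kB subunit, was at 504, 758 and 521 CPM in replicates 2, 3 and 4 of the cells labelled knockout and 587, 680 and 638 CPM in wild-type cells. In DESeq2, Relb and Cacnb3, named above, passed as lower without replicate 3 (adjusted p = 0.00966 and 0.0003). With it neither passed (adjusted p = 0.935 and 0.923), and DESeq2 calls were not counted over the list. Ccl22 stood at 1847 and 1937 CPM in replicates 2 and 4, against 2123, 2315 and 2256 CPM in wild-type cells. NF-kB targets and cytokine genes had a median of 0.32 with replicate 3 and -0.09 without it. Il12b, a subunit of interleukin 12, was at 69.0, 137 and 45.7 CPM in the cells labelled knockout and 44.2, 46.6 and 38.9 CPM in wild-type cells (log2 fold change 0.96, SE 0.30, and 0.40, SE 0.16, without replicate 3). Replicates 2 and 3 lay above all wild-type libraries and replicate 4 among them.

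**Figure D4:**
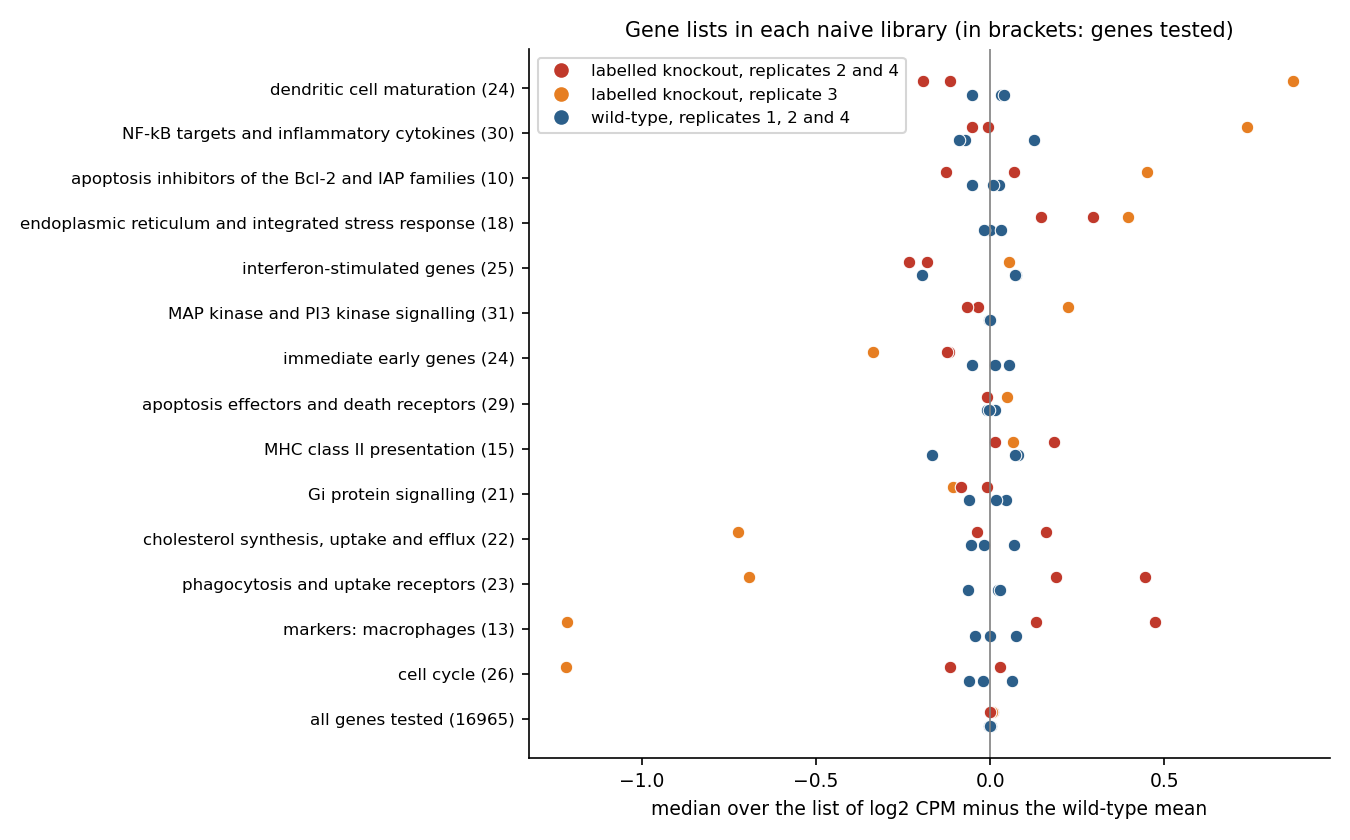
Median over each gene list of log2 CPM minus the wild-type mean, for each naive library (labelled knockout above, wild-type below; replicate 3 labelled knockout in orange; in brackets the genes tested). Replicate 3 labelled knockout stands far from the other 5 libraries in maturation, NF-kB, cholesterol, uptake, macrophage and cell cycle genes, and near them over all genes.

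Receptors for uptake went the other way. Among 23 tested members 21 had a positive log2 fold change without replicate 3 (median 0.28) and 13 with it (median 0.07), and for 13 of the 23 replicates 2 and 4 labelled knockout lay above all wild-type libraries, where over all genes this held for 12.7%. Cd36, a scavenger receptor for oxidised lipid, was the 1 member in which all 3 libraries labelled knockout lay above all wild-type libraries, at 492.9, 531 and 491.7 CPM in the cells labelled knockout and 306, 329 and 327 CPM in wild-type cells (log2 fold change 0.66, SE 0.19, edgeR adjusted p = 0.617, and 0.61, SE 0.22, without replicate 3). Clec7a, the receptor Dectin-1 for fungal glucan, was at 204, 157 and 191 CPM in the cells labelled knockout and 138, 122 and 165 CPM in wild-type cells (log2 fold change 0.38, SE 0.15, and 0.47, SE 0.15, without replicate 3). Macrophage markers, some of which are uptake receptors too, moved with this list: their median was -0.09 with replicate 3 and 0.24 without it, and replicates 2 and 4 were above all wild-type libraries for 6 of 13 and below for 0, where over all genes this held for 12.7% and 13%. The summed level of these 13 markers was 777 to 1679 CPM in the cells labelled knockout and 1368 to 1575 CPM in wild-type cells, and the part of a different share of macrophages in the uptake values was not tested.

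**Figure D5:**
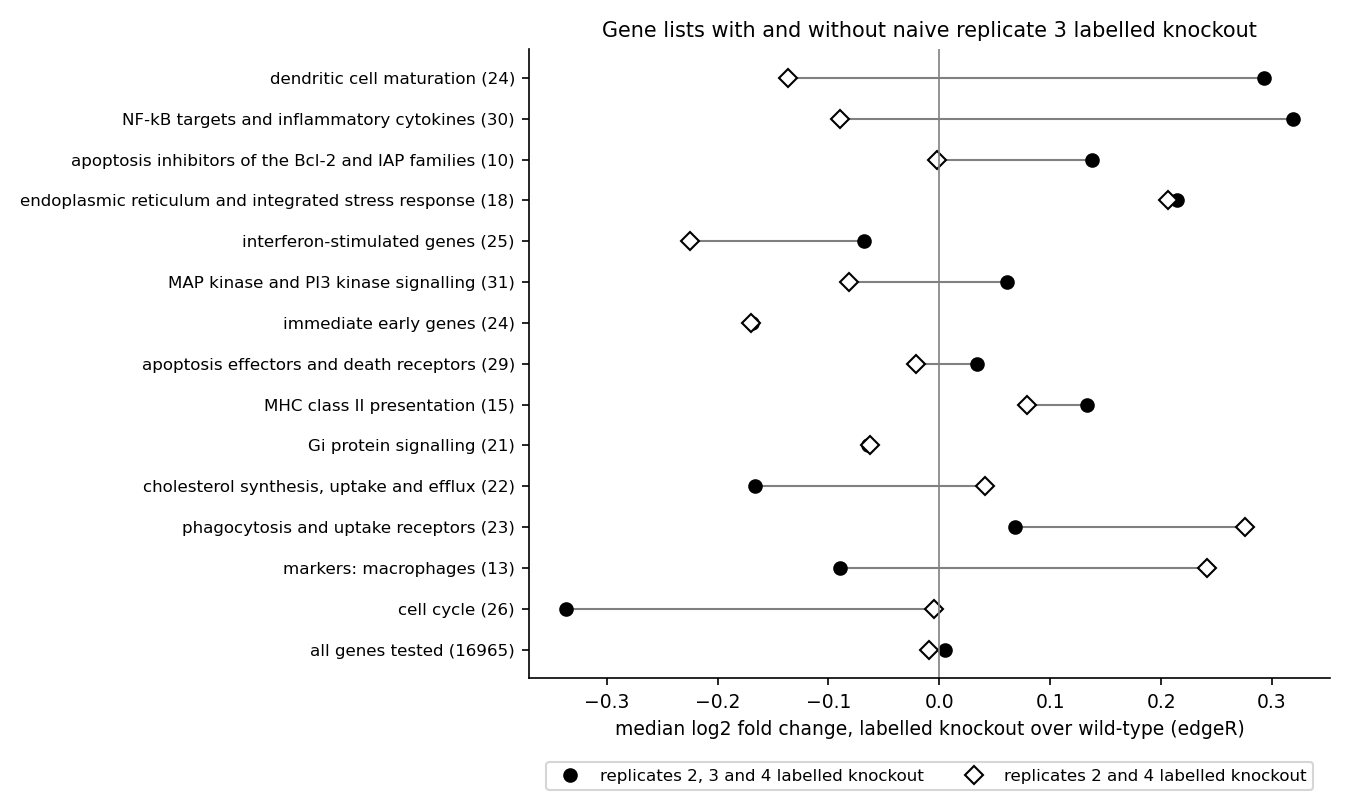
Median log2 fold change, labelled knockout over wild-type, of each gene list with all 3 libraries labelled knockout (filled circles) and with replicates 2 and 4 alone (open diamonds). Among others, the medians of the maturation, NF-kB, cholesterol and macrophage lists cross 0 when replicate 3 is left out, and those of the stress response and of immediate early genes move little.

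Genes of the endoplasmic reticulum and integrated stress response kept their median, though fewer reached a low p, when replicate 3 was left out. The median log2 fold change was 0.21 with and without replicate 3, over 18 genes tested, against 0.00 over all genes. All 3 libraries labelled knockout lay above all wild-type libraries for 7 of the 18 and below for 1, where over all genes this held for 6.59% and 6.48%, and 6 were higher and 1 lower at an unadjusted p under 0.05. Without replicate 3 there were 3 higher and 1 lower at that p, and 12 of the 18 had a positive fold change, against 15 with it. Slc7a11, which imports cystine, was at 61.4, 104 and 71.5 CPM in replicates 2, 3 and 4 of the cells labelled knockout and 45.3, 38.9 and 48.9 CPM in wild-type cells (log2 fold change 0.83, SE 0.18, and 0.57, SE 0.14, without replicate 3). Asns, which makes asparagine, was at 33.9, 57.7 and 34.6 CPM in the cells labelled knockout and 22.1, 18.7 and 29.6 CPM in wild-type cells (log2 fold change 0.84, SE 0.23, and 0.53, SE 0.19, without replicate 3). Hsp90b1, the chaperone GRP94, was at 480 CPM in replicate 2, 508 CPM in replicate 3 and 482 CPM in replicate 4 labelled knockout, against 394, 357 and 369 CPM in wild-type cells (log2 fold change 0.39, SE 0.11, and 0.35, SE 0.12, without replicate 3). Chac1, a glutathione-degrading target of the response, had 1.41 (SE 0.47), and 0.71 (SE 0.39) without replicate 3. None passed in edgeR, and Slc7a11 passed in DESeq2 with and without replicate 3 (adjusted p = 0.0105 and 0.0337). Replicate 3 was the highest of the 6 libraries for 12 of the 18. The median was 0.24 in LPS-treated cells and 0.19 in spleen, where over all genes it was -0.01 and 0.02. In spleen the value was not particular to this list: heat shock chaperones had 0.33, cell cycle genes 0.31 and ribosomal proteins 0.23.

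None of the interferon-stimulated genes or the genes of iron handling passed in edgeR. Of 25 interferon-stimulated genes 17 had a negative log2 fold change without replicate 3 (median -0.22) and 15 with it (median -0.07), and for 10 of the 25 replicates 2 and 4 lay below all wild-type libraries, where over all genes this held for 13%. At an unadjusted p under 0.05, 10 of the 25 were lower and 0 higher without replicate 3 (3.8% and 2.21% over all genes), and 5 were lower and 1 higher with it. Oasl2 was at 82.5, 87.8 and 92.1 CPM in the cells labelled knockout and 141, 98.4 and 122 CPM in wild-type cells (log2 fold change -0.46, SE 0.13, and -0.48, SE 0.15, without replicate 3), and Ifit3 at 1.99, 2.15 and 1.89 CPM against 4.61, 2.91 and 3.24 CPM. In both, replicate 3 lay with the other libraries labelled knockout. Slc11a1, the phagosomal metal transporter NRAMP1, was at 36.9, 35.8 and 35.0 CPM in the cells labelled knockout and 23.7, 19.7 and 27.3 CPM in wild-type cells (log2 fold change 0.61, SE 0.17, and 0.60, SE 0.19, without replicate 3). Cell cycle genes had a median of -0.34 with replicate 3 and -0.00 without it, and none passed.

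Markers of other cell types were read for the same libraries. B cell markers had a negative log2 fold change in 8 of 11 tested genes (median -0.74 with replicate 3, -0.41 without it), and their summed level was 4.98 to 15.2 CPM in the cells labelled knockout and 18.2 to 23.4 CPM in wild-type cells. Igkc, the immunoglobulin kappa constant gene, was at 2.23, 0.726 and 2.35 CPM in the cells labelled knockout and 6.78, 7.27 and 4.84 CPM in wild-type cells, and Ighm at 3.76, 0.566 and 2.59 CPM against 6.38, 7.84 and 5.18 CPM. Immunoglobulin constant genes share sequence, so the split of reads among Ighg3 and its relatives is uncertain, and the part of these cells or of plasma cells in the Ighg3 value was not tested. Mast cell and basophil markers were negative in 6 of 8 tested genes (median -0.85 with replicate 3, -0.72 without it). Mcpt8, a low gene for a basophil protease, was at 0.774, 0.443 and 0.535 CPM in the cells labelled knockout and 1.23, 1.11 and 1.19 CPM in wild-type cells. The summed level of the 8 overlapped, at 30.4 to 62.6 CPM in the cells labelled knockout and 57.0 to 64.1 CPM in wild-type cells. That sum mostly followed Kit, which reached 54.2 CPM and is also on the lists of conventional dendritic cells and of progenitors. Each other tested member reached at most 4.54 CPM, so the medians rest on low genes. At an unadjusted p under 0.05 in edgeR, 1 of the 8 was higher and 1 lower with replicate 3, and 0 without it.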

How the data were processed

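RNA-seq of 31 mouse libraries was deposited as whole-number read counts per Ensembl gene, 1 list per library. The authors deposited these counts without normalization. The submitters' processing notes name TopHat, Bowtie, SAMtools, bedtools, DESeq and the build mm9; no source used here states strand use, multiple mapping or the annotation. Coordinates and symbols come from a GRCm38 annotation matched by Ensembl ID.

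Genes were filtered with filterByExpr, scaled by TMM and tested with edgeR 4.0.16 (quasi-likelihood, robust; R 4.3.3) over the 12 dendritic cell libraries, without replicate 3 over 11, and over 19 spleens, with Benjamini-Hochberg adjustment at 0.05 over all genes tested. SE is the fold change divided by the root of the F statistic. The test was tried on simulated counts. DESeq2 1.42.0 and limma 3.58.1 were alternatives, beside other scalings, no filter, the naive libraries alone, a replicate block and each library left out. Deviations of same-numbered naive libraries correlated at 0.03 and -0.09, which does not tell whether they share more than a number. Total counts were 41801772 to 74164853 per naive library, so precision was lowest for genes with few counts.

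The ranked genes are the 8 higher and 8 lower with the smallest p among genes with groups that did not overlap. Their mean over all compared libraries had to be 1 CPM or more. The same rule was used without replicate 3, and predicted names were left out. For gene lists, up to 4 members with the smallest p, the targeted gene and its region are named; other named members, markers among them, were chosen after their values were seen. Members and lists were chosen with earlier results of these data known.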

Additional observations from a re-analysis of the deposited data

Results flagged for a closer look

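Among the values described, 1 stood far from its group: Rnmt in 1 wild-type spleen library was at 26.7 CPM, while all 10 wild-type spleens had a median of 54.9 CPM and a maximum of 65.0 CPM. Chance alone sets about 1 in 20 groups apart by this measure.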

How the results depend on the processing

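Of the counts and Gpr34 values, 87 kept their direction and side under an alternative and 20 moved, and of single genes 1252 did, with 22 newly passing, 12 moved and 24 reversed; the cause was not tested. In naive cells DESeq2 called 46 higher and 30 lower, no filter and limma voom 1 lower each, and leaving out 1 library 0 to 1 lower; without replicate 3 DESeq2 called 18 higher and 66 lower. In LPS-treated cells DESeq2 called 220 higher and 149 lower, and leaving out 1 library gave 0 to 2 higher and 0 to 1 lower. In spleen 20 genes were higher and 16 lower in edgeR, against 7 and 183 with no composition factors, 448 and 430 in DESeq2 and 383 and 407 in limma voom. For the genotype by LPS difference DESeq2 called 11 higher and 10 lower, and edgeR 0. The log2 fold change of Gpr34 ranged from -6.52 to -2.25 when 1 library was left out. With the replicate block it was -4.46, with 0 genes called. The deviations of same-numbered naive libraries correlated at 0.03 (number 2) and -0.09 (number 4). Differently numbered naive pairs of labelled knockout and wild-type correlated at -0.08 to 0.11. These values cannot tell whether same-numbered libraries share more than a number. Reversed were Apoc2 (limma voom -0.47, replicate block -0.014, without replicate 3 -0.66, 5 naive libraries -0.65, all 3 libraries with over 100 Gpr34 counts left out -0.65, highest without 1 library 0.54), Arl5c (limma voom -0.22, then -0.41, -0.40 and -0.40, highest 0.62), Cask (-0.091, -0.082 and -0.082, highest 0.38), Gpr82 (-0.063, -0.055 and -0.055, without wild-type 2 -0.060, without wild-type 4 -0.17, highest 0.42), Tspan7 (limma voom 0.057, then 0.042, 0.055 and 0.053, without wild-type 2 0.29, lowest -1.66), Kdm6a (without replicate 3 -0.0094, highest 0.41) and Bcor (without knockout 2 0.080, lowest -0.24). Depth limits low genes such as Gpr34, Asic3 and Ighg3.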
